A study of Mus musculus with 29 samples.

Results

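The question here was which genes of the mouse distal colon changed differently in Cygb-/- and in wild-type (WT) animals when colitis was induced with azoxymethane (AOM) and dextran sulfate sodium (DSS). AOM is a carcinogen and DSS, given in the drinking water, injures the epithelium, so that together they give an inflamed colon that develops tumours. All 29 arrays of the series entered the comparison, and each belonged to 1 of 4 groups, namely 8 untreated WT, 8 untreated Cygb-/-, 8 AOM/DSS-treated WT and 5 AOM/DSS-treated Cygb-/- colons. All animals were C57BL/6 females, 18 to 24 weeks old by the labels, and each array held total RNA of the distal colon of 1 animal. Treated animals had received 7.4 mg/kg AOM and 3% DSS. The labels describe a single DSS cycle, whereas the methods of the study describe a second cycle and a later sampling for the arrays. The methods name the untreated animals with another cohort than the treated ones, so treatment and cohort cannot be told apart. The design text counts 8 treated Cygb-/- animals, of which 5 are labelled and were analysed here. Cygb-/- animals lacked an exon of the cytoglobin gene in every cell, the allele was made in embryonic stem cells of another mouse strain and backcrossed to C57BL/6J, and Cygb-/- and WT experimental animals were bred as separate lines from heterozygous pairs. Genotype and line therefore cannot be told apart. The hour at which the colons were taken is not given in the sources used here.

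The interaction is the AOM/DSS response in Cygb-/- animals minus the response in WT animals, where a response is the mean log2 signal of treated minus untreated arrays. A negative interaction means that treated Cygb-/- animals had less signal than the WT response would give from the untreated Cygb-/- level. It was fitted with limma for 41345 probe sets over all 4 groups, and a probe set was called where its p, adjusted by Benjamini-Hochberg over all probe sets, was under 0.05. "Higher" and "lower" below refer to the sign of the interaction. A gene was read from the probe set with the highest mean over all arrays, which gave 22180 genes. In whole tissue, fewer cells of a type and less RNA per cell cannot be told apart.

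Cytoglobin is a heme protein of the globin family that binds oxygen and nitric oxide. In the colon the study saw its protein in fibroblast-like and other stromal cells, and measured its mRNA in cultured epithelial crypts as well. An interaction of genotype and injury asks more than a comparison of genotypes does, since a gene that differs by the same amount before and after injury has none. For Cygb itself no interaction was called. Its mean log2 signal was 8.78 in untreated WT, 6.12 in untreated Cygb-/-, 9.03 in treated WT and 6.30 in treated Cygb-/- arrays, and its interaction was -0.07 (adjusted p = 0.963 from limma). Markers of the labelled tissue were present, since Muc2, the mucin of goblet cells, averaged 12.76 to 13.26 and Car1, a carbonic anhydrase of colonocytes, averaged 11.34 to 12.59 over the groups. The level of Xist, an RNA that coats the inactive X in female cells, was 3.82 in treated Cygb-/- replicate 3 and 10.64 to 11.15 on the other 28 arrays, while the Y-linked Kdm5d, Eif2s3y and Uty were not above the range of the other arrays on it. Where a named gene lost its call without this array, its adjusted p without it is given as well.

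Where the response to AOM/DSS was called in both genotypes, its direction was almost always the same. In WT animals 12122 probe sets were called for the response (29.3% of those tested), and in Cygb-/- animals 11121 (26.9%). Both responses were called for 8045 probe sets, and only 12 of these had opposite signs, but the response was the larger in Cygb-/- animals for 5807 of them (72.2%). The median SE of a response was 0.113 in Cygb-/- and 0.0987 in WT animals. A larger estimate was therefore in general needed in Cygb-/- animals to enter this set. How far this moved that share was not tested. Over all probe sets, responses of the same sign were larger in Cygb-/- for 43.3% and in WT for 33.7%, and 23.0% had opposite signs. The median interaction over all probe sets was 0.00, 95.9% of them lay within 0.5 log2 units of 0, and the median standard error was 0.15. These values include probe sets with no called response, so they do not describe the size of the called responses. Between the genotypes, 16 probe sets (0.0387%) were called in untreated and 403 (0.975%) in treated colons.

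The interaction itself was called for 61 probe sets, 0.148% of those tested, of which 42 were lower (0.102%) and 19 higher (0.046%). They held 59 distinct profiles, 41 genes were called by their representative probe set (24 lower and 17 higher), and 3342 probe sets had an unadjusted p under 0.05. Of the 61, 46 had an interaction of at least 1.5-fold. Calls that were also made when each group was given its own variance weight, and when treated Cygb-/- replicate 3 was left out, numbered 40, of 25 genes (14 lower and 11 higher). These 25 are referred to as the stable genes. With separate variances for the groups and no moderation 38 probe sets were called, 33 of them among the 61, and the stable genes Nxpe2, BC018473, Pnp2, Elmod1, Lacc1, Gfpt2, Serpinh1, Fam124a, Ppp2r1b, Gm5862 and Gm11714 were then not called (adjusted p from 0.0515 to 0.557). The count rose to 131 without treated Cygb-/- replicate 5 and to 116 without treated WT replicate 8. Without the array of low Xist 41 were called, and 40 of these were among the 61.

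**Figure D1:**
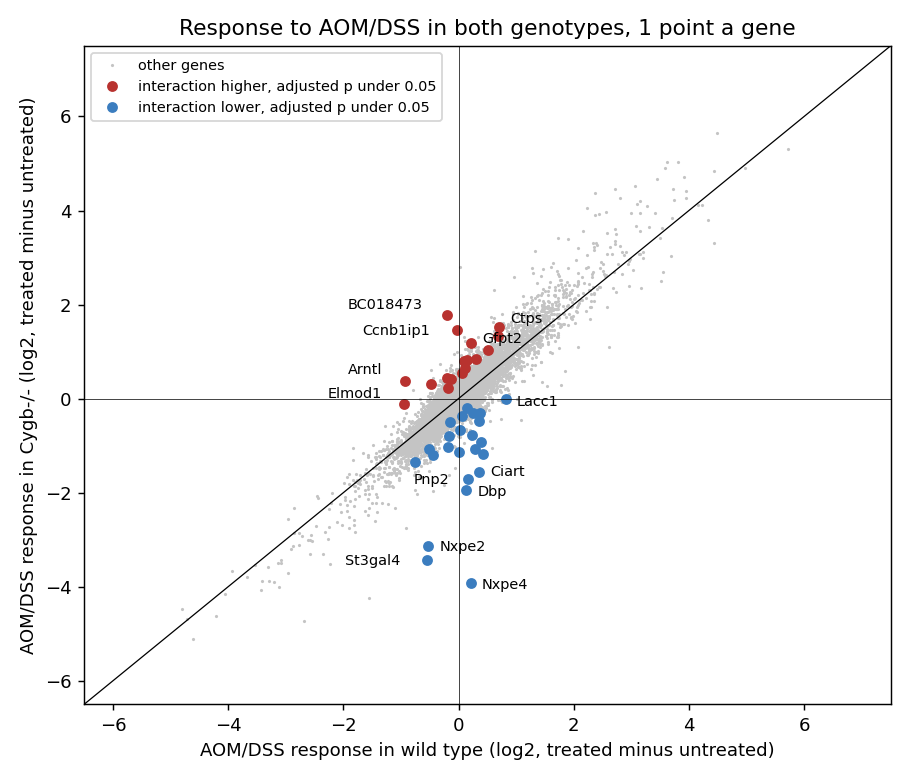
Each point is 1 of 22180 genes, with its AOM/DSS response in WT animals (log2, horizontal axis) against that in Cygb-/- animals (log2, vertical axis). The line marks equal responses. Red and blue points are the 41 called genes. Nxpe4, Nxpe2 and St3gal4 lie far below the line, and BC018473 and Ccnb1ip1 above it at a WT response close to 0.

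Over the 4 group means, the 61 called probe sets followed few patterns. In 31 the responses of the genotypes had opposite signs, in 28 they had the same sign and were larger in Cygb-/-, and in 2 they were larger in WT. Over all probe sets these shares were 23.0%, 43.3% and 33.7%. By which contrasts passed the test, the largest class held 27 probe sets of 18 genes, in which treated Cygb-/- colons stood apart and neither the WT response nor the untreated genotypes differed past the threshold, a class of 0.319% of all probe sets. A further 24 probe sets of 15 genes had called responses in both genotypes, as 19.5% of all probe sets did. Treated WT colons stood apart in the same sense for 5 probe sets (0.128% of all) and untreated Cygb-/- colons for 1 (0.0121% of all). On 28 called probe sets the 5 treated Cygb-/- arrays lay outside the range of all other 24 arrays, which held for 97 of all probe sets (0.235%), and on 42 outside the range of the treated WT arrays, which held for 267 of all probe sets (0.646%). The contrast used here also enters these counts, so they describe the called probe sets and are no further evidence for them.

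The largest interactions of named genes were those of 2 neighbouring members of the neurexophilin and PC-esterase domain family, which are expressed in colonic epithelium, and of a sialyltransferase. Nxpe4 was lower by 4.13 log2 units, St3gal4 by 2.88 and Nxpe2 by 2.60. For all 3 the 5 treated Cygb-/- arrays lay below every other array.

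Nxpe4 had log2 signals of 4.19, 4.36, 4.16, 4.23 and 4.51 on the 5 treated Cygb-/- arrays. On treated WT arrays the lowest, median and highest values were 7.88, 8.50 and 8.74, on untreated Cygb-/- arrays 7.93, 8.19 and 8.43, and on untreated WT arrays 7.77, 8.26 and 8.47. The treated Cygb-/- arrays thus lay more than 3 log2 units below every other array and close to each other, and the other 3 groups overlapped. The interaction was -4.13 (SE 0.19, 95% interval -4.51 to -3.76, adjusted p = 9.20e-15 from limma), a 17.6-fold difference between the responses. In WT animals the response of 0.21 did not pass the test (adjusted p = 0.206), and in Cygb-/- animals it was -3.92 (SE 0.14).

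Nxpe2 was lower on the same arrays but varied more. Its signals were 6.23, 7.16, 5.79, 6.57 and 7.29 on treated Cygb-/- arrays, against 8.80 to 9.53 (median 9.15) on treated WT, 9.49 to 10.02 (median 9.71) on untreated Cygb-/- and 9.27 to 9.95 (median 9.75) on untreated WT arrays. No treated Cygb-/- array overlapped another group. Nxpe2 fell in WT animals too, by 0.53 (adjusted p = 0.0110), and the interaction of -2.60 (SE 0.24, adjusted p = 7.68e-08 from limma) came on top of that. Nxpe5 and Nxpe3, which complete the measured family, rose in both genotypes, Nxpe5 by 1.15 in WT and 1.39 in Cygb-/- and Nxpe3 by 1.29 and 1.25. Their interactions of 0.24 and -0.04 did not pass the test (adjusted p = 0.863 and 0.989).

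St3gal4 encodes an enzyme that adds sialic acid in alpha-2,3 linkage to galactose of glycoproteins and glycolipids. It had 6.94, 6.20, 7.36, 6.11 and 6.15 on treated Cygb-/- arrays, 8.48 to 9.68 (median 9.21) on treated WT, 9.79 to 10.29 (median 9.96) on untreated Cygb-/- and 9.33 to 10.03 (median 9.66) on untreated WT arrays. The groups were ordered with untreated arrays highest, treated WT arrays in between and treated Cygb-/- arrays lowest and apart. The interaction was -2.88 (SE 0.25, adjusted p = 3.88e-08 from limma), 7.37-fold. Of 20 measured sialyltransferases St3gal4 was the only one called, and the median interaction of the list was 0.03. St6galnac1, which adds sialic acid to mucin-type glycans, came next in size with 0.88 (SE 0.26, adjusted p = 0.252), and St8sia5 had -0.76 (adjusted p = 0.534). Of 24 enzymes of mucin O-glycan synthesis 0 were called (limma, 3 with an unadjusted p under 0.05). Over all genes, 9.64% had an interaction with an unadjusted p under 0.05, and such counts in the lists below are to be read against that share.

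**Figure D2:**
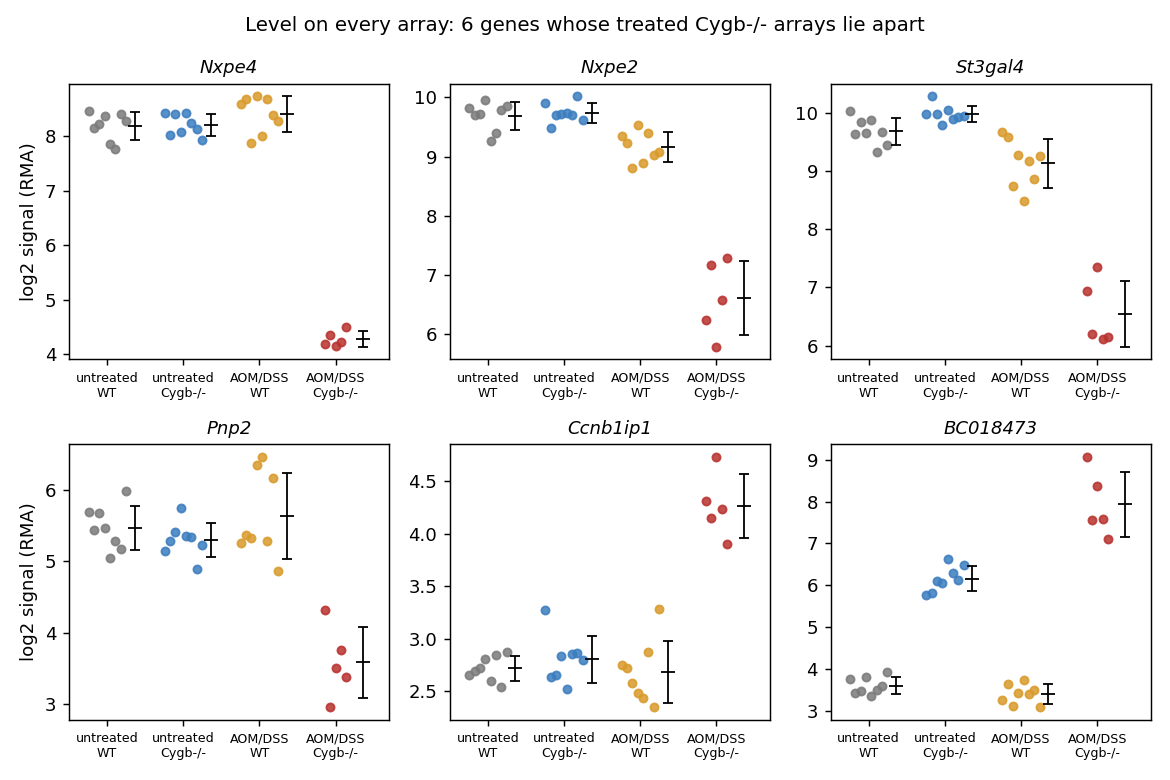
Log2 signal (RMA values, vertical axes) of 6 genes on each of the 29 arrays, grouped by genotype and treatment (horizontal axis). Each point is 1 array, and the bar beside each group is the mean with its SD. In every panel the 5 treated Cygb-/- arrays lie outside the range of the other 24.

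Many of the called genes lay on 2 chromosomes. By the GRCm38.p6 annotation, chromosome 9 held 8 of the 41 called genes and chromosome 14 held another 8, which is 0.638% of the 1254 measured genes of chromosome 9 and 1.01% of the 790 of chromosome 14, against 0.185% of all genes. No other chromosome had more than 4. Of the 25 stable genes, 7 were on chromosome 9 and 6 on chromosome 14. These shares are given as a description, with no test.

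On chromosome 9 the 8 genes lay between ranks 224 and 535 in gene order. St3gal4 had rank 224, and Pdzd3, Slc37a4, Tmem25, Nxpe4, Nxpe2, Ppp2r1b and Elmod1 followed between ranks 411 and 535, with Nxpe4 and Nxpe2 side by side at 470 and 471. Signs were mixed, since Ppp2r1b (0.54) and Elmod1 (0.84) were higher and the other 6 lower. The median interaction over all 312 genes of this stretch was -0.02, and 0 of them were called between untreated genotypes (0.0631% of all genes were). On chromosome 14 the 8 genes were wider apart, from rank 53 to rank 666, with Ccnb1ip1 at 318 and Pnp2 at 325, and the median over the 614 genes of that stretch was 0.00. Between treated genotypes 18 of the 312 genes of the chromosome 9 stretch and 27 of the 614 of the chromosome 14 stretch were called, against 1.38% of all genes. Each stretch was set by its outermost genes with a called interaction, and the treated genotype difference is part of that interaction. These counts include genes that define the stretches, so they are partly fixed in advance.

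**Figure D3:**
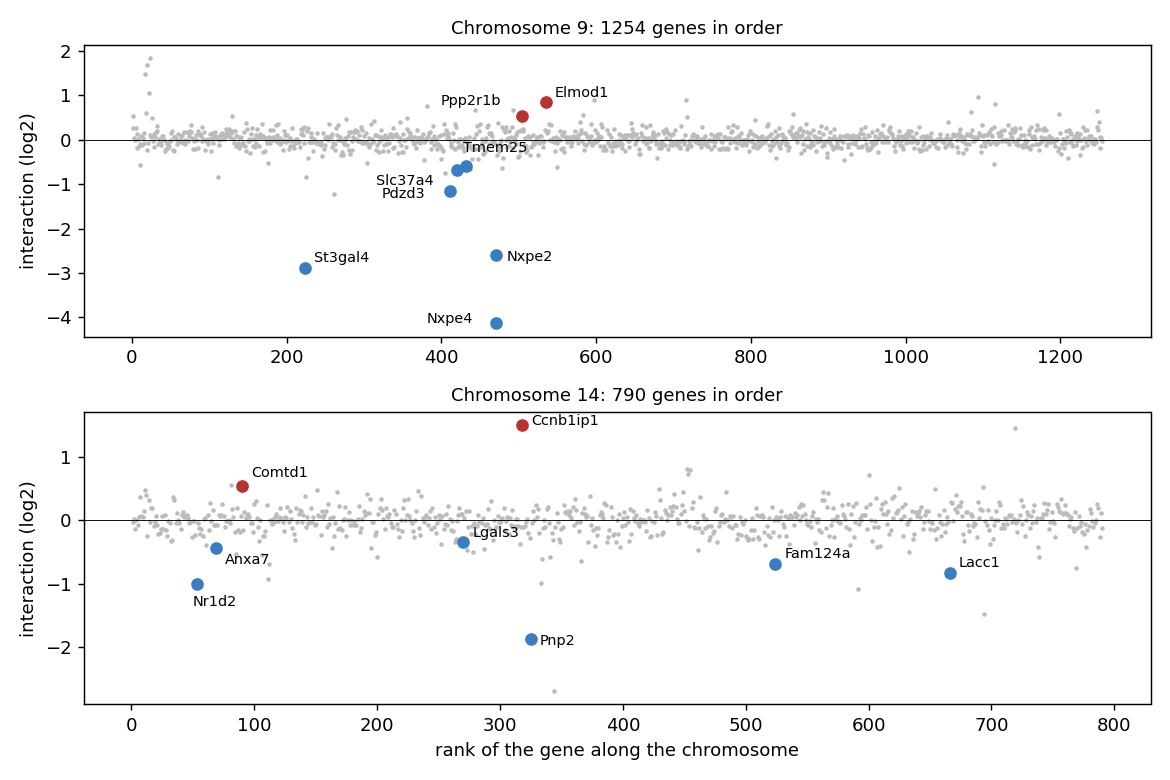
Interaction (log2, vertical axes) of every measured gene of chromosome 9 (1254 genes) and chromosome 14 (790 genes) against its rank in gene order along the chromosome (horizontal axes). Red and blue points are called genes, higher and lower. The called genes of chromosome 9 lie between ranks 224 and 535, and the median of the 312 genes in that stretch is -0.02.

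Among the other lower genes of chromosome 9, Slc37a4 encodes the transporter that carries glucose 6-phosphate into the endoplasmic reticulum. It was 7.19, 7.13, 6.92, 7.01 and 7.17 on treated Cygb-/- arrays and between 7.46 and 7.86 on all other arrays, with an interaction of -0.69 (SE 0.09, adjusted p = 0.000161 from limma). Pdzd3, a PDZ scaffold of the intestinal brush border, had 5.44, 5.18, 5.10, 5.11 and 4.99, and only its value of 5.44 overlapped the treated WT arrays (5.38 to 6.53, median 6.30). Its interaction was -1.16 (SE 0.20, adjusted p = 0.00647). Tmem25 was lower by 0.59 (adjusted p = 0.0284), but was not called without treated Cygb-/- replicate 3 (adjusted p = 0.0970).

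Pnp2 and Ccnb1ip1 moved in opposite directions on the same arrays. Pnp2 encodes a purine nucleoside phosphorylase, which splits inosine and guanosine, and Ccnb1ip1 encodes a ubiquitin ligase best known from meiotic recombination. Pnp2 was 4.32, 2.96, 3.51, 3.76 and 3.39 on treated Cygb-/- arrays and 4.86 to 6.46 on all others, with an interaction of -1.87 (SE 0.31, adjusted p = 0.00398). Ccnb1ip1 was 4.31, 4.15, 4.73, 4.23 and 3.90 on treated Cygb-/- arrays and 2.35 to 3.28 on all others, with an interaction of 1.49 (SE 0.18, adjusted p = 2.09e-05). Neither gene responded in WT animals past the threshold (adjusted p = 0.587 for Pnp2 and 0.861 for Ccnb1ip1), and outside treated Cygb-/- arrays Ccnb1ip1 lay near or below the lower quartile of all signals on an array (3.26 to 3.37).

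BC018473, a transcript on chromosome 11, the chromosome of Cygb, had the largest difference between untreated genotypes among the called genes (2.56, adjusted p = 1.09e-09) and rose further in Cygb-/- animals. It was 3.35 to 3.92 on untreated WT and 3.08 to 3.74 on treated WT arrays, 5.77 to 6.63 on untreated Cygb-/- arrays, and 9.07, 7.57, 8.37, 7.58 and 7.10 on treated Cygb-/- arrays. The 2 Cygb-/- groups overlapped neither each other nor WT. The WT response was -0.21 (adjusted p = 0.429), the Cygb-/- response 1.78 (SE 0.21), and the interaction 1.99 (SE 0.28, adjusted p = 0.000403 from limma).

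Several called genes belong to the circadian clock. In it, BMAL1 (encoded by Arntl) and CLOCK bind E-boxes and switch on the period, cryptochrome, Rev-erb and PAR bZIP genes, PER and CRY proteins then repress BMAL1 and CLOCK, and REV-ERB proteins repress Arntl through ROR elements. The PAR bZIP factors DBP, TEF and HLF in turn act through D-boxes. Genes of the BMAL1 phase therefore peak when these targets are low, and the colon epithelium keeps such a clock.

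Promoters of clock genes that moved here are shown because their known control elements can be read in them. The windows, from RefSeq on GRCm38.p6, run from 250 bases before to 50 bases after an annotated start, 5′ to 3′, with matches in capitals. Motifs were searched on both strands as CACGTG (E-box), TTANGTAA (D-box) and TAGGTCA (the core of a ROR element), and no matches in the 3 windows overlapped.
Ciart (chr3:95882179-95882478, minus strand): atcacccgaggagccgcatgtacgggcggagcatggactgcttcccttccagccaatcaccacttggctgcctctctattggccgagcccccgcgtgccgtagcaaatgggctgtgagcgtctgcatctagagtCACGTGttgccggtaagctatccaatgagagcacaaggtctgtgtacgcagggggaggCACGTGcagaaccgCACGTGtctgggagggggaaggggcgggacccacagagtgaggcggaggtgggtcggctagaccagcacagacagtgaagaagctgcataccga
Per3 (chr4:151044616-151044915, minus strand): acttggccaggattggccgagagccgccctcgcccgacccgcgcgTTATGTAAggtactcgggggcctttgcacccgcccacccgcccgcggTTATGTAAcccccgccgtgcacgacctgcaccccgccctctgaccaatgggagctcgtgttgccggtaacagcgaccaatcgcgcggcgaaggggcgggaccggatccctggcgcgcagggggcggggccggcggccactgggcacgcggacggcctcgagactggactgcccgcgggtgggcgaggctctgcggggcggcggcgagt
Arntl (chr7:113207261-113207560, plus strand): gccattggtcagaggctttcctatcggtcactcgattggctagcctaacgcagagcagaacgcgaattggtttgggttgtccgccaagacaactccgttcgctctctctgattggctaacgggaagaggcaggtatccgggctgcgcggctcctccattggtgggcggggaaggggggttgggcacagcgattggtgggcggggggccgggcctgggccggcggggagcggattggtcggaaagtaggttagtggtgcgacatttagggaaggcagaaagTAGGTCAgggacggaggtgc
Ciart holds 3 E-boxes, Per3 2 D-boxes, and this start of Arntl 1 ROR core. The other annotated start of Arntl held no match. Of 10 genes of the PER phase with a window, 4 held an E-box (Bhlhe41, Ciart, Per1 and Tef) and 1 a D-box, against 8.09% and 2.72% of all 27025 genes with windows. Of these, Bhlhe41 and Per1 had no called interaction, and the windows of the called genes Dbp, Nr1d2 and Hlf held no match to any motif. Of 6 genes of the BMAL1 phase, 1 held an E-box (Cry1) and 2 the ROR core (Arntl and Nfil3), which 2.97% of all genes held. A match is a run of letters and not a measured binding site.

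In the list of genes that follow BMAL1 (period, Rev-erb and PAR bZIP genes, here the PER phase), 11 were measured, 6 were called lower (Dbp, Ciart, Per3, Tef, Nr1d2 and Hlf, against 0.108% of all genes), 10 had a negative interaction and the median was -1.0, against a median of 0.00 over all probe sets. Of 6 measured genes of the BMAL1 phase, Arntl was called higher, 5 had a positive interaction and the median was 0.45. The members had been chosen with clock results of these arrays known, so the counts describe them and support nothing further. Without treated Cygb-/- replicate 3, 5 of the 11 and Arntl were called, and the medians were -0.97 and 0.39.

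Dbp, the PAR bZIP factor that follows the clock most closely, was 8.49, 7.53, 7.88, 7.70 and 7.79 on treated Cygb-/- arrays. It was 8.77 to 9.78 (median 9.39) on treated WT, 8.85 to 10.33 (median 10.19) on untreated Cygb-/- and 8.21 to 9.91 (median 9.38) on untreated WT arrays. All 5 treated Cygb-/- arrays lay below every treated WT and every untreated Cygb-/- array, and 1 overlapped untreated WT. The interaction was -2.08 (SE 0.38, 95% interval -2.86 to -1.31, adjusted p = 0.00976 from limma), made of a response of -1.95 in Cygb-/- and of 0.14 in WT animals (adjusted p = 0.728).

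Ciart encodes a repressor of BMAL1. It was 5.69, 5.30, 5.58, 5.17 and 5.43 on treated Cygb-/- arrays and 6.12 to 6.86 (median 6.40) on treated WT arrays. Untreated arrays reached 5.97 to 7.67 (median 7.35) in Cygb-/- and 5.34 to 6.60 (median 6.39) in WT animals, so treated Cygb-/- arrays overlapped only the lowest untreated WT arrays. The interaction was -1.92 (SE 0.37, adjusted p = 0.0193). Part of it lay in the untreated genotypes, where the Cygb-/- mean exceeded the WT mean by 0.88 (adjusted p = 0.498), and between treated genotypes the difference of -1.04 did not pass the test (adjusted p = 0.0680).

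For Per3, a period gene, the treated Cygb-/- arrays lay wholly apart. They had 6.10, 5.95, 5.83, 5.64 and 5.97, and all other arrays 6.23 to 7.56. Its interaction was -1.36 (SE 0.23, adjusted p = 0.00479). Hlf, also apart on all 5 arrays (4.93 to 5.32 against 5.57 to 6.61), had -0.84 (SE 0.17, adjusted p = 0.0331) but missed the threshold without treated Cygb-/- replicate 3 (adjusted p = 0.0880).

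Tef and Nr1d2 (which encodes REV-ERB beta) followed the same pattern with some overlap. Tef was 5.38, 4.74, 5.16, 4.80 and 5.08 on treated Cygb-/- arrays and 5.54 to 6.58 on treated WT arrays, and had an interaction of -1.31 (SE 0.26, adjusted p = 0.0240). A second probe set of Tef gave -0.41 (adjusted p = 0.348), so its size rests on the probe set read. Nr1d2 was 8.05, 7.79, 7.66, 7.56 and 7.95 against 8.05 to 8.71 (median 8.58) on treated WT arrays, with an interaction of -1.0 (SE 0.19, adjusted p = 0.0143).

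Arntl ran the other way, and its pattern was that of treated WT animals standing apart. It was 7.57 to 7.88 (median 7.72) on treated WT arrays, 7.32 to 8.66 (median 8.15) on untreated Cygb-/- and 8.14 to 9.29 (median 8.58) on untreated WT arrays. Treated WT arrays lay below all untreated WT arrays and overlapped untreated Cygb-/- arrays. On treated Cygb-/- arrays it was 8.24, 8.65, 8.30, 8.82 and 8.48, above every treated WT array. Arntl thus fell in WT animals by 0.93 (adjusted p = 4.85e-05) and had 0.38 in Cygb-/- animals (adjusted p = 0.135), an interaction of 1.30 (SE 0.24, adjusted p = 0.0143). Npas2, which can replace CLOCK as the partner of BMAL1, had the same signs with an interaction of 0.96 (SE 0.23) that did not pass (adjusted p = 0.104).

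Bhlhe41 (-1.18), Cry2 (-0.73), Nr1d1 (-0.74) and Per1 (-0.51) had negative interactions that did not pass (adjusted p from 0.124 to 0.651), and Bhlhe40 had 0.00. Clock had 0.14 and Cry1 0.10. Cipc, a repressor of CLOCK outside both lists, was called lower (-0.75, adjusted p = 0.0159, and 0.0526 without treated Cygb-/- replicate 3).

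Clock genes also varied between arrays of one untreated group. On untreated WT replicates 2, 4 and 6, Dbp was 8.78, 8.21 and 8.63 and Ciart 5.53, 5.34 and 5.66, the 3 lowest of their group, while Arntl was 8.87, 9.29 and 8.92, the 3 highest. Untreated Cygb-/- replicates 2, 4 and 8 were the 3 lowest of theirs for Dbp, Ciart, Per3 and Tef. The mean of the PER phase list, centred on all arrays, ran from -0.47 to 0.28 on untreated WT, from -0.23 to 0.62 on untreated Cygb-/-, from -0.27 to 0.46 on treated WT and from -0.74 to -0.39 on treated Cygb-/- arrays. Whether the hour of sampling moved with the groups was not tested.

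**Figure D4:**
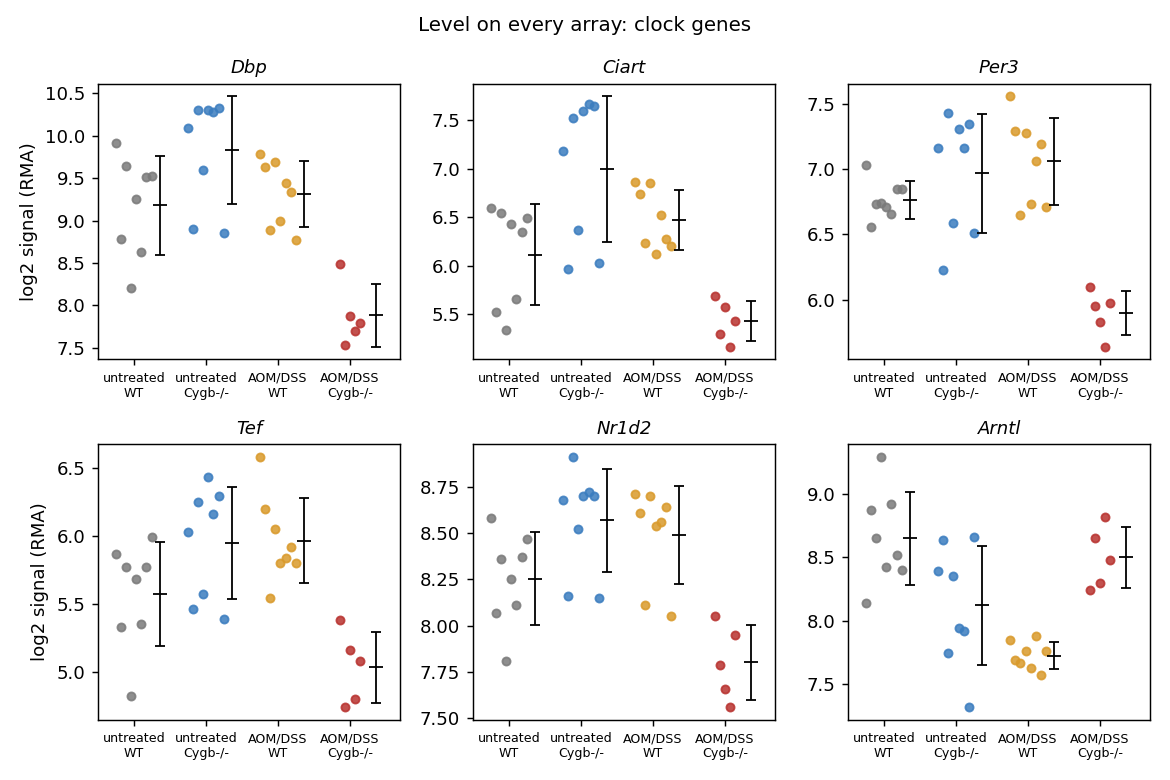
Log2 signal (RMA values, vertical axes) of 6 clock genes on each of the 29 arrays, grouped by genotype and treatment (horizontal axis). Each point is 1 array, and the bar beside each group is the mean with its SD. The group means of Dbp, Ciart, Per3, Tef and Nr1d2 are lowest for treated Cygb-/- arrays, and only for Per3 do all of these arrays lie below every other array. Arntl is higher on treated Cygb-/- arrays than on every treated WT array.

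Some stable genes responded in WT animals and not past the threshold in Cygb-/- animals. Lacc1, which encodes a laccase domain enzyme known from macrophages, rose in WT colons by 0.82 (adjusted p = 1.10e-06) and had -0.01 in Cygb-/- colons. Its treated WT arrays (6.15 to 6.66) lay above every array of the other groups, among them 6.06, 5.86, 6.04, 5.56 and 5.62 on treated Cygb-/- arrays, and the interaction was -0.82 (SE 0.17, adjusted p = 0.0268). Elmod1 fell in WT colons by 0.95 and had -0.11 in Cygb-/- colons, an interaction of 0.84 (adjusted p = 0.0443). Its treated Cygb-/- arrays differed among themselves, with 5.20, 5.06, 5.34 and 4.69 on treated Cygb-/- replicates 1, 2, 4 and 5 and 4.03 on replicate 3, below all treated WT arrays (4.11 to 4.49). Its adjusted p was 4.13e-05 without replicate 3, and the call was lost in 23 of the 29 fits that left out 1 array.

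In others both responses passed the test with opposite signs. Htra4, a secreted serine protease of the HtrA family, rose by 0.36 in WT and fell by 0.48 in Cygb-/- animals, and the interaction of -0.84 (SE 0.15, adjusted p = 0.00738) came with untreated Cygb-/- arrays (4.99 to 5.67) that lay almost wholly above untreated WT ones (4.41 to 5.00). Fam124a rose by 0.38 in WT and fell by 0.30 in Cygb-/- animals. Its treated Cygb-/- arrays (6.11 to 6.56) did not overlap treated WT arrays (6.91 to 7.35), and the interaction was -0.68 (SE 0.13, adjusted p = 0.0187). Alg3, a mannosyltransferase of N-glycan assembly, had the reverse signs, -0.19 in WT and 0.22 in Cygb-/-, and was not among the stable genes (0.41, adjusted p = 0.0257, and 0.0595 without treated Cygb-/- replicate 3).

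Fam102b was the 1 called probe set for which the untreated genotypes differed past the threshold (-0.31, adjusted p = 0.0469) while the treated genotypes and the WT response did not. It was 7.75 to 8.06 on untreated Cygb-/- arrays against 8.03 to 8.42 on untreated WT, 8.06 to 8.37 on treated WT and 8.37 to 8.53 on treated Cygb-/- arrays, with an interaction of 0.48 (SE 0.09, adjusted p = 0.0143). Comtd1, with a catechol methyltransferase domain, was 6.39 to 6.55 on treated Cygb-/- arrays and at most 6.36 elsewhere (0.54, SE 0.08, adjusted p = 0.000544).

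Among higher genes, those of collagen folding and of amino sugar synthesis are described first. Serpinh1 encodes the collagen chaperone HSP47. It was 8.29, 8.71, 8.39, 8.71 and 8.58 on treated Cygb-/- arrays and 7.85 to 8.34 (median 8.01) on treated WT arrays, with a response of 0.79 in Cygb-/-, of 0.10 in WT (adjusted p = 0.397) and an interaction of 0.69 (SE 0.12, adjusted p = 0.00923). Gfpt2, which starts the hexosamine pathway, had 6.84, 7.15, 6.97, 6.60 and 6.10, and 4 of these 5 arrays lay above all treated WT arrays (6.02 to 6.46). Its interaction was 0.96 (SE 0.18, adjusted p = 0.0143, and 0.0451 without treated Cygb-/- replicate 3). Part of this interaction lay in the untreated genotypes, which differed by -0.47 (adjusted p = 0.334 from limma). Between treated genotypes the difference of 0.49 did not pass the test (adjusted p = 0.0757 from limma). Col5a1, a chain of type V collagen, was called by 1 of its 2 probe sets (0.51, adjusted p = 0.0366, against 0.11, adjusted p = 0.861), was not called without treated Cygb-/- replicate 3 (adjusted p = 0.0724), and lost the call in 18 of the 29 fits that left out 1 array. Hspa8 was called by 1 probe set that was not the representative one (0.98, with 0.00 to 0.11 in the other 3).

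DNA replication genes leaned the same way without many calls. Of 25 measured members of the replication and E2F list, 25 had a positive interaction, with a median of 0.41 against 0.00 over all probe sets. Calls numbered 2, against 0.185% of all genes. E2f8, an E2F repressor that acts late in the cell cycle, was 7.29, 7.54, 7.47, 7.44 and 7.31 on treated Cygb-/- arrays, above all 24 others (6.37 to 7.16), with an interaction of 0.64 (SE 0.12, adjusted p = 0.0193). Ctps, which makes CTP, rose by 0.70 in WT and 1.53 in Cygb-/- animals (0.82, SE 0.17, adjusted p = 0.0264). Neither was called without treated Cygb-/- replicate 3 (adjusted p = 0.0526 and 0.0880), so 0 of the list then were. E2f2 (0.75) and Cdt1 (0.41) did not pass (adjusted p = 0.151 and 0.164). Of 25 cell cycle and mitosis genes, 22 had a positive interaction, with a median of 0.17 and 0 called (limma, 2 with an unadjusted p under 0.05). That median was 0.08 without treated WT replicate 1 and 0.26 without treated WT replicate 5.

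A miRNA gene was among the lower ones. Mir215 belongs to a family of intestinal epithelium and its probe set reports the precursor locus, not the mature arm. The mature 5p arm, shown for its seed (bases 2 to 8, in capitals), is, from RefSeq on GRCm38.p6:
mmu-miR-215-5p (chr1:185313610-185313630, plus strand): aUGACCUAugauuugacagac
The Mir215 signal was 3.03, 3.38, 3.15, 3.51 and 3.18 on treated Cygb-/- arrays and 3.21 to 3.92 (median 3.65) on treated WT arrays, which overlapped. Its interaction of -0.63 (SE 0.13, adjusted p = 0.0318) was not called without treated Cygb-/- replicate 3 (adjusted p = 0.0970), and at these levels the signal is close to the lower quartile of the arrays.

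Other called genes were not stable. H60c, a ligand of the NKG2D receptor of cytotoxic lymphocytes, had an interaction of -1.59 (SE 0.31, adjusted p = 0.0217, and 0.0562 without treated Cygb-/- replicate 3). Slc5a1, the sodium and glucose cotransporter, had -0.55, Ankrd12 -0.56, Anxa7 -0.43, Igbp1 -0.36 and Lgals3, which encodes galectin 3, -0.34. Pear1, a receptor of platelets and endothelium, had 0.65 and Sf3b5, a splicing factor, 0.53. Without treated Cygb-/- replicate 3 none of these 7 was called, with adjusted p from 0.0512 (Ankrd12) to 0.132 (Pear1). Ppp2r1b, a scaffold subunit of protein phosphatase 2A, was a stable gene with 0.54 (adjusted p = 0.0156), as were Gm5862 (0.79) and Gm11714 (0.68), for which no role is given. The call of Gm5862 was lost in 16 of the 29 fits that left out 1 array, and that of Gm11714 in 2. The largest interaction among the called probe sets, -4.77 (SE 0.28, adjusted p = 3.17e-12), belonged to 3 probe sets with identical values and no gene symbol in the annotation, 17548738, 17548740 and 17548742, at 5.27 to 5.48 on treated Cygb-/- arrays and 9.20 to 11.16 on all others.

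Neutrophil, metalloproteinase and cytokine genes had mostly positive interactions, the T cell, B cell and interferon lists did not, and 0 of these genes were called. Among other leukocyte lists, mast cell genes had 11 positive of 12 and a median of 0.63 (0.26 without treated Cygb-/- replicate 5). MHC class II genes had 8 positive of 9 and a median of 0.17, and 0 of either list were called. Of 25 neutrophil genes, 22 had a positive interaction, the median was 0.88 and 0 were called (limma, 16 with an unadjusted p under 0.05). S100a9, a subunit of calprotectin, rose by 2.57 in WT and by 3.97 in Cygb-/- animals, an interaction of 1.40 (SE 0.40, adjusted p = 0.222). Mmp8, neutrophil collagenase, had 1.84 (SE 0.56, adjusted p = 0.265). The neutrophil score, the mean of the list centred on all arrays, ran from 0.24 to 1.73 on treated WT and from 0.94 to 2.73 on treated Cygb-/- arrays, where replicates 1 and 3 had 2.57 and 2.73 and the other 3 at most 1.37. Without replicate 3 the median of the list was 0.64.

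Matrix metalloproteinases and their inhibitors gave 17 positive interactions of 18 with a median of 0.63, and 0 were called (limma, 8 with an unadjusted p under 0.05). The nearest to a call was Mmp19 (0.67, SE 0.14, adjusted p = 0.0505), followed by Adamts4 (1.10, adjusted p = 0.110) and Mmp3 (1.69, SE 0.47, adjusted p = 0.200). The median was 0.41 without treated Cygb-/- replicate 3. Of 27 inflammatory cytokines and receptors, 25 were positive with a median of 0.44 (0.29 without treated Cygb-/- replicate 3) and 0 called (12 with an unadjusted p under 0.05), for example Il1r1, the receptor of interleukin 1 (0.65, adjusted p = 0.137) and Il1b (1.17, adjusted p = 0.372), which rose by 4.49 in WT and 5.66 in Cygb-/- animals. Chil3, a chitinase-like protein of macrophages, had 2.00 (SE 0.52, adjusted p = 0.151) within a macrophage list whose median was 0.20. The T cell list had 8 positive interactions of 17 (11 after quantile normalization or median centring) and a median of 0.00, and the B cell list 7 of 15 and -0.02. Of 22 interferon-stimulated genes 10 were positive, with a median of -0.06 (-0.21 without treated Cygb-/- replicate 3).

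Targets of ERK signalling, stroma and vessels leaned to positive values as well. Dusp6 (0.90, SE 0.20, adjusted p = 0.0753) and Spry4 (0.83, adjusted p = 0.158), feedback inhibitors of ERK, led a list of 21 with 19 positive and a median of 0.22. Endothelial genes had 17 positive of 18 (median 0.30) and fibroblast genes 17 of 22 (median 0.31), and 0 of either were called (9 and 13 with an unadjusted p under 0.05). Of these 13 fibroblast genes, 11 were positive and 2 negative. All 14 smooth muscle genes were negative, with a median of -0.25 and values from -0.49 to -0.01, and 0 were called (limma, 4 with an unadjusted p under 0.05). Of the 14, 1 turned positive when arrays were centred on their medians.

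Absorptive colonocyte genes and genes of drug metabolism leaned to negative values, while other lists of mature epithelium had medians near 0 or above it. Of 26 absorptive colonocyte genes 18 were negative (median -0.17, 0 called, 8 with an unadjusted p under 0.05). Car2, a carbonic anhydrase, had -0.72 (SE 0.18, adjusted p = 0.127) and Slc26a3, the chloride and bicarbonate exchanger, -1.19 (SE 0.31, adjusted p = 0.151), after falling in both genotypes. Of 36 cytochrome P450 and drug metabolism genes, 27 were negative with a median of -0.37, and 0 were called (18 with an unadjusted p under 0.05). Of these 18, 15 were negative and 3 positive. Goblet cell genes had a median of -0.04, with Ang4 (-2.69, SE 1.06, adjusted p = 0.456) far below the others and very variable. Enteroendocrine genes had 15 positive interactions of 21 (median 0.09) and tuft cell genes 8 of 12 (median 0.13), and 0 of either were called.

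The list of fatty acid and cholesterol synthesis also leaned to negative values. Of its 24 measured members, 18 were called higher for the response in WT and 7 in Cygb-/- animals (17.9% and 18.1% of all genes were), counts that rest on unequal numbers of arrays, the medians of the responses were 0.40 and 0.11, and 0 interactions were called (limma, 12 with an unadjusted p under 0.05, median -0.15). Of these 12 interactions, 11 were negative and 1 positive. Insig1, which restrains sterol synthesis, rose by 0.52 in WT and had -0.25 in Cygb-/- animals (-0.77, SE 0.18, adjusted p = 0.0827). Hmgcs1, an early enzyme of the pathway, rose by 0.54 in WT and had 0.03 in Cygb-/- animals (-0.51, SE 0.15, adjusted p = 0.220). The squamous epithelium score ran from -0.40 to 1.44 on treated WT and from -0.26 to 0.76 on treated Cygb-/- arrays, and from -0.53 to 0.74 and -0.60 to -0.45 on untreated WT and Cygb-/- arrays. Its means were 0.58 and 0.31 in treated and -0.24 and -0.54 in untreated WT and Cygb-/- animals. Whether the score reports anal tissue in the sample was not tested. With that score as a covariate 71 probe sets were called, among them all 61.

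**Figure D5:**
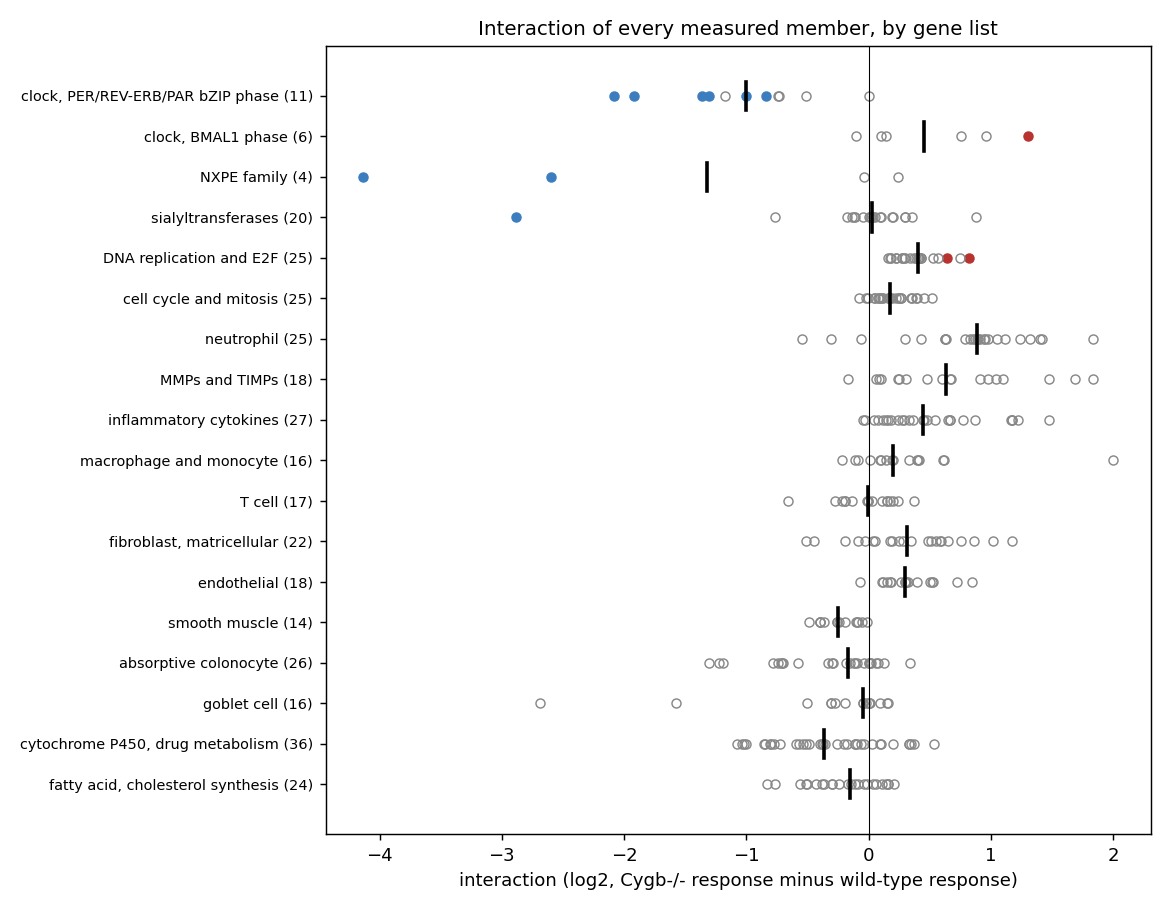
Interaction (log2, horizontal axis) of every measured member of 18 gene lists (number of members in parentheses). Filled points are called genes (red higher, blue lower), open points are not called, and the black bar is the median of the list. Calls fall in the clock, NXPE, sialyltransferase and replication lists, and open points of the neutrophil and metalloproteinase lists reach higher than most called genes.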

How the data were processed

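Total RNA of the distal colon was hybridised to Affymetrix Mouse Gene 2.0 ST arrays, 1 array for each of 29 animals. The authors summarised the scans with RMA (oligo package) and deposited 1 log2 value for each of 41345 probe sets and each array, normalised between arrays; the build of the annotation and the tool versions are not given in the sources used here. Every value column of the table belonged to a labelled sample, and no scanner files were used here. Precision is limited by the number of arrays, not by a read depth. Array medians lay between 4.76 and 4.88 and single values between 0.72 and 13.47 on the log2 scale. Of the probe sets, 23521 had 1 gene symbol in the platform annotation, 1820 several and 16004 none, and names were given only to those with 1.

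The values were taken as deposited, with no filter, and fitted with limma 3.58.1 in R 4.3.3 with 1 coefficient for each group. The interaction, the responses and the genotype differences were contrasts of this fit, two-sided, adjusted by Benjamini-Hochberg over all probe sets at 0.05. They share arrays, so they do not test each other. The methods of the study give a t-test between groups and no test of an interaction. A gene was read from its probe set with the highest mean. A called probe set was also refitted with group variance weights and without treated Cygb-/- replicate 3. The script was tested on simulated data with known changes before use. The text names the called genes, led by up to 15 stable genes in each direction, and up to 4 members of a list with the smallest p; other members that are named were chosen after their values were seen. The members, lists and alternatives were chosen with earlier results of these data known. List scores are means of list members centred on all 29 arrays. Replicate numbers did not pair the samples and were used only in an alternative. Promoter windows and the miRNA come from RefSeq on GRCm38.p6, as does gene order, for 21994 genes with a chromosome.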

Additional observations from a re-analysis of the deposited data

Results flagged for a closer look

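The response to AOM/DSS differed between the genotypes for 61 probe sets, by limma's test of the difference itself. The 24 lower genes had interactions of -4.13 (Nxpe4), -2.88 (St3gal4), -2.60 (Nxpe2), -2.08 (Dbp), -1.92 (Ciart), -1.87 (Pnp2), -1.59 (H60c), -1.36 (Per3), -1.31 (Tef), -1.16 (Pdzd3), -1.0 (Nr1d2), -0.84 (Hlf), -0.84 (Htra4), -0.82 (Lacc1), -0.75 (Cipc), -0.69 (Slc37a4), -0.68 (Fam124a), -0.63 (Mir215), -0.59 (Tmem25), -0.56 (Ankrd12), -0.55 (Slc5a1), -0.43 (Anxa7), -0.36 (Igbp1) and -0.34 (Lgals3) on the log2 scale. The 17 higher genes had 1.99 (BC018473), 1.49 (Ccnb1ip1), 1.30 (Arntl), 0.96 (Gfpt2), 0.84 (Elmod1), 0.82 (Ctps), 0.79 (Gm5862), 0.69 (Serpinh1), 0.68 (Gm11714), 0.65 (Pear1), 0.64 (E2f8), 0.54 (Comtd1), 0.54 (Ppp2r1b), 0.53 (Sf3b5), 0.51 (Col5a1), 0.48 (Fam102b) and 0.41 (Alg3).

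Single arrays lay far from the rest of their group, by Dixon's test at 95%, in 11 of 172 groups of values tested, where chance gives about 1 in 20. The largest gap was that of Xist at 3.82 on treated Cygb-/- replicate 3. Untreated Cygb-/- arrays gave 6 of the 11, namely Ccnb1ip1 at 3.27 on replicate 1, Lacc1 at 5.50 and Anxa7 at 9.30 on replicate 6, Sf3b5 at 7.11 on replicate 7, and Slc37a4 at 7.52 and Ppp2r1b at 7.68 on replicate 8. On treated WT arrays they were Pear1 at 6.60 on replicate 3, Alg3 at 9.31 on replicate 5 and Anxa7 at 9.15 on replicate 8. Pear1 at 7.59 on treated Cygb-/- replicate 3 was the remaining one, and Pear1 was not called without that array (adjusted p = 0.132 from limma).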

How the results depend on the processing

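The interaction of every one of the 61 probe sets kept its sign in each alternative that tested it. The count of calls was 57 after quantile normalization, 61 after median centring (25 higher and 36 lower), 59 with group weights, 74 with trended and robust variances and 71 with the squamous score as a covariate. With unmoderated variances for each group it was 38 (9 higher), with 14 of the larger Cygb-/- pattern and 15 of treated Cygb-/- apart. The methods' t-test, carried to the contrast among probe sets of at least 1.5-fold, gave 406 (173 higher and 233 lower, 192 opposite, 196 larger in Cygb-/- and 56 treated Cygb-/- apart), of which 46 were among the 61. A minimum of 1.5-fold left 18 of the pattern larger in Cygb-/-. Probe sets of 1 symbol gave 28 higher and 32 lower. With the replicate number as a block 54 were called, 46 of them among the 61; same-numbered arrays did not deviate together (mean r from -0.05 to 0.08 over the pairs of groups). Leaving out 1 array gave 41 to 131 calls, 12 to 73 higher, 27 to 64 lower, 22 to 49 opposite, 16 to 78 larger in Cygb-/- and 19 to 45 treated Cygb-/- apart. The lowest count came without treated Cygb-/- replicate 3, the highest without replicate 5, and 116 without treated WT replicate 8; the cause was not tested. Of Cygb, the interaction of -0.07 ranged from -0.16 to 0.000291 when 1 array was left out, turning positive without treated Cygb-/- replicate 5, and was called in none of these. Precision is limited by the 5 treated Cygb-/- arrays, and the median SE of an interaction was 0.15.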
